A study of Mus musculus with 4 samples.

Results

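Expression of 10 genes of satellite cells and of the muscle programme was followed across whole normal skeletal muscle: Pax7, Pax3, Myf5, Myod1, Myog, Myf6, Mef2c, Cdh15, Calcr and Sdc4. The genes were chosen by name, all 10 were measured, and they stand among 12393 genes with a probe set of their own on 1-colour Affymetrix arrays. The 4 samples, titled skm4, skm5, nm7 and nm8, were all bulk muscle from Wild Type mice of strain mixed 129S4/SvJae and C57BL/6, with 1 array each. The labels name no muscle, age, sex or treatment, and they do not say whether the samples came from separate mice, so the p-values speak only to how far these samples scatter, and that scatter may be technical. The series also concerns sarcomas started from Pax7-expressing muscle progenitors and by Cre virus in muscle, which were not analysed here. The title prefix, skm or nm, is the only label that divides the samples, and its meaning is not given. It may mark a batch of collection or extraction, so every skm minus nm difference given here may be a batch difference, and batch and prefix cannot be told apart.

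Satellite cells are the stem cells of skeletal muscle and lie beneath the sheath of each fibre. The paired box factor Pax7 marks them and keeps them available. When they are activated they switch on the myogenic bHLH factors in sequence, with Myf5 and MyoD committing cells to the muscle lineage, myogenin driving differentiation and Mrf4, the product of Myf6, most abundant in mature fibres. These 4 factors pair with E proteins and bind the E-box, and they act with MEF2 proteins. Whole muscle consists mostly of fibres, so its RNA holds little from satellite cells. In such bulk samples, fewer cells of a type and less RNA per cell cannot be told apart.

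The promoters of members that read higher, lower or alike between the prefixes are shown so that their E-boxes can be seen. RefSeq sequence of the GRCm38.p6 build was matched for 7 of the 10 genes, and Myod1, Myf6 and Pax3 had no entry. Each line below gives the 250 bases before the gene start, 5′ to 3′ on the gene's own strand, with E-boxes (CANNTG, which reads alike on both strands) in capitals. Myog and Cdh15 lie on the plus strand and Sdc4 and Pax7 on the minus strand.
Myog chr1:134289754-134290003: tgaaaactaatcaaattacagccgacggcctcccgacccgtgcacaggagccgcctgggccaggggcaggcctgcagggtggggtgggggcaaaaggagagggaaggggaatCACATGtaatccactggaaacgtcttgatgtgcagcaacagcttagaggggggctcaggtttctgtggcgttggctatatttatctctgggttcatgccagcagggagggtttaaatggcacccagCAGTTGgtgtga
Cdh15 chr8:122848124-122848373: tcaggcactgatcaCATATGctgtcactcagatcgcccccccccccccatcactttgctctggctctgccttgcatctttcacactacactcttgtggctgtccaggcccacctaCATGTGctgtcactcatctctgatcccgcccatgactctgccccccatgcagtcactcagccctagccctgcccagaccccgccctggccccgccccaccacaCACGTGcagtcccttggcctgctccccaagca
Sdc4 chr2:164443189-164443438: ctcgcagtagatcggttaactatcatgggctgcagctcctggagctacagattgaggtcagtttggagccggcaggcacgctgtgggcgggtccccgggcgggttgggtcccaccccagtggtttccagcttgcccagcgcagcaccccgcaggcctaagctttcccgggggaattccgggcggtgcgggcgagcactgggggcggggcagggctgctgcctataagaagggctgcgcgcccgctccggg
Pax7 chr4:139832969-139833218: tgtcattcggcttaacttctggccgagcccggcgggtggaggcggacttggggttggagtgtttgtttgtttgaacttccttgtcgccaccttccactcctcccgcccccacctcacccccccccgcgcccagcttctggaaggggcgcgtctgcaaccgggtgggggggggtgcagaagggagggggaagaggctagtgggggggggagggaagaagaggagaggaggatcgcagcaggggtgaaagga

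The Myog window held 2 E-boxes, which start 138 and 12 bases before the gene start, and the Cdh15 window held 3, starting 236, 135 and 32 bases before it. The windows of Sdc4, Pax7 and Myf5 held 0. Calcr had 2 listed starts, with 0 and 1 E-boxes, and Mef2c had 3, with 2, 0 and 1. No E-boxes overlapped each other. Of 32851 such windows in the table, 66.2% held at least 1 E-box, 31.8% at least 2 and 12.2% at least 3, so such counts are common. A match is a run of letters and not a binding site.

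Genes of muscle fibres, the labelled tissue, were near the top of the scale. All 10 defining fibre markers, such as Ckm, which encodes muscle creatine kinase, and Acta1, skeletal alpha actin, read between 13.73 and 14.75 on the log2 scale of the authors' RMA values (robust multi-array averages), where the highest value on any array was 14.76. All 10 satellite cell and regulator genes lay above the control probe sets for the bacterial TrpnX transcript on every array, which read 3.40 to 4.05. The array medians were 7.26 to 7.30.

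Myod1 and Myog read higher in the skm samples, and Sdc4, Mef2c and Pax7 read lower there by their brightest probe set, while the other 5 genes overlapped between the prefixes. None of the 10 passed the test over all genes, limma's moderated test with Benjamini-Hochberg adjustment at 0.05, which called 4 genes, or 0.0323% of the 12393. At an unadjusted p under 0.05 there were 4 of the 10 (Myod1, Sdc4, Myog and Pax7), against 23.5% of all genes. The 5 without overlap were 50.0% of the members against 54.4% of all genes, with 2 higher (25.8% of all genes) and 3 lower (28.6% of all genes). Separation of the prefixes was therefore about as frequent among these genes as in the whole table. The median difference of the 10 was -0.085, against -0.003 over all genes, and their median absolute difference was 0.247 against 0.200.

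**Figure D1:**
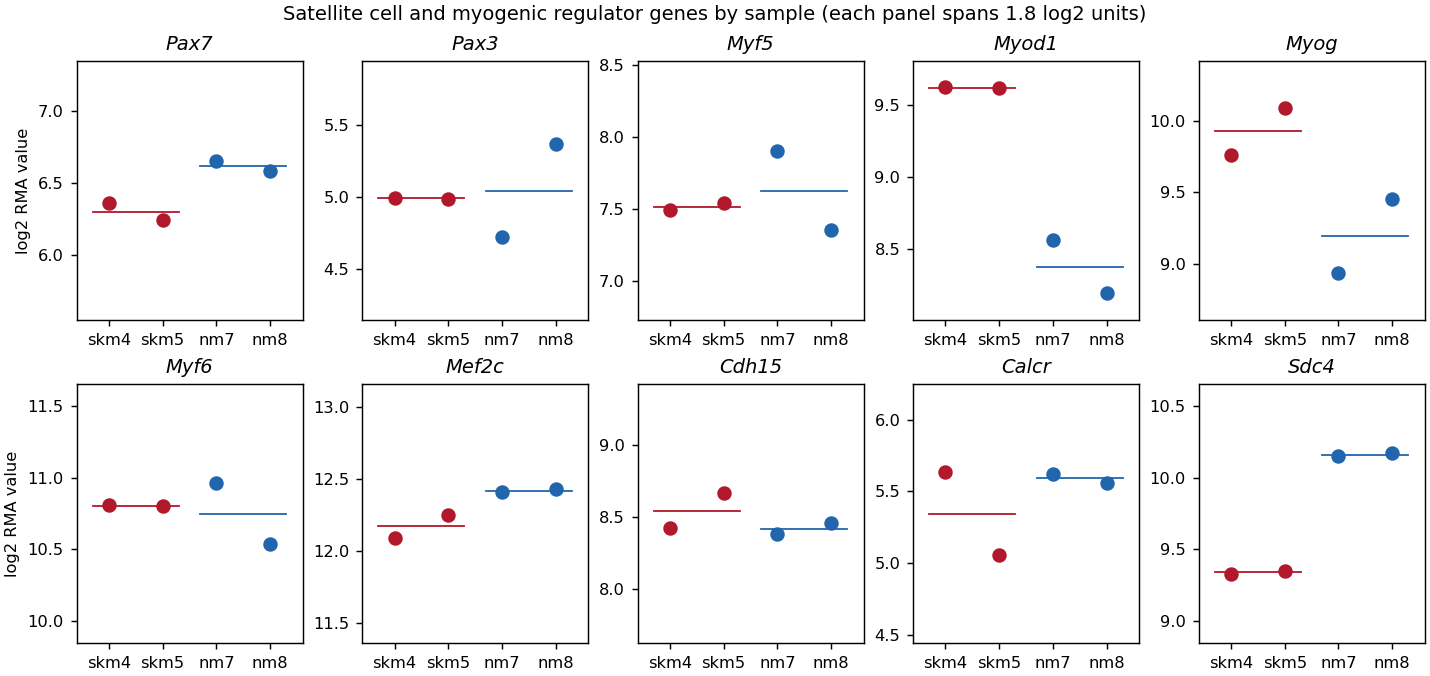
Log2 RMA values of the 10 genes in skm4 and skm5 (red) and nm7 and nm8 (blue), with 1 point per array and a bar at each prefix mean. The panels share a span of 1.8 log2 units but not a level; Myod1 sits at 9.62 in both skm samples, against 8.56 and 8.19 in the nm samples, and Sdc4 at 9.33 and 9.35, against 10.15 and 10.17.

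Pax7, the paired box factor that defines satellite cells and whose expressing cells give the series its title, read 6.36 in skm4 and 6.24 in skm5, against 6.65 in nm7 and 6.58 in nm8. Both skm values lay below both nm values. The difference was -0.31 ± 0.12 on the log2 scale (SE, n = 2 against 2), or 1.24-fold lower in skm, with an adjusted p = 0.20 in limma and a 95% interval, not adjusted for the number of genes, of -0.62 to -0.01. Its SD over the 4 samples, 0.19, was under the median of 0.23 among the 1632 genes within 0.5 log2 of its level. The 4 samples thus spanned 0.41 log2 units, or 1.32-fold, in the marker of the satellite cell.

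Pax3, the paralogue of Pax7 that acts in embryonic muscle progenitors and in satellite cells of some adult muscles, was dim. It read 4.995 in skm4 and 4.99 in skm5, against 4.73 in nm7 and 5.37 in nm8. The skm values lay between the nm values, and the difference of -0.06 ± 0.23 had a 95% interval of -0.62 to 0.51 (limma, adjusted p = 0.91). Its second probe set read 4.34 and 4.23 in skm4 and skm5, against 4.29 and 4.68 in nm7 and nm8, close to the control probe sets. With both probe sets, nm8 was the highest sample and the prefixes overlapped. Without nm8 the difference of the first probe set was 0.27, with the opposite sign.

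Myf5, the earliest of the myogenic factors and one that many quiescent satellite cells transcribe, read 7.49 in skm4 and 7.54 in skm5, against 7.90 in nm7 and 7.35 in nm8. The skm pair lay between the nm samples, with a difference of -0.11 ± 0.20 (limma, adjusted p = 0.78), and without nm7 it was 0.16. Cdh15, M-cadherin, which joins satellite cells to the fibre, had the lowest SD of the 10 over all 4 samples. It read 8.42 in skm4 and 8.67 in skm5, against 8.38 in nm7 and 8.46 in nm8, and its SD of 0.13 lay at percentile 26.6 of all genes. Without skm5 that SD was 0.039, just above the 0.038 of Calcr. It was also not the lowest of the 10 without skm4 (0.148), nm7 (0.133) or nm8 (0.155), or with arrays centred on their median (0.145). Its difference was 0.13 ± 0.14, with a 95% interval of -0.22 to 0.47 (limma, adjusted p = 0.64), and it was 0.00 without skm5 and 0.25 without skm4.

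Calcr, the calcitonin receptor that helps to hold satellite cells in quiescence, set 1 sample apart. It read 5.63 in skm4 and 5.06 in skm5, against 5.62 in nm7 and 5.56 in nm8. These values were dim, below the array medians of 7.26 to 7.30. Its SD of 0.275 stood against a median of 0.229 among genes within 0.5 log2 of its level. The skm4, nm7 and nm8 values lay within 0.07 of each other on the log2 scale and skm5 was below them all. The difference was -0.25 ± 0.21 (limma, adjusted p = 0.54), and it was 0.04 without skm5.

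Sdc4, syndecan-4, a heparan sulfate proteoglycan used to isolate satellite cells and present on many other cell types, gave opposite answers by its 2 probe sets. By the probe set with the higher mean it read 9.33 in skm4 and 9.35 in skm5, against 10.15 in nm7 and 10.17 in nm8. The prefixes stood apart with almost no spread inside either pair, and the difference was -0.82 ± 0.11, or 1.77-fold lower in skm (limma, adjusted p = 0.051). By the other probe set it read 9.89 in skm4 and 9.71 in skm5, against 9.62 in nm7 and 9.37 in nm8. That is a separation in the opposite direction, by 0.30 ± 0.15, or 1.23-fold higher in skm (limma over all probe sets, adjusted p = 0.31). Among the 4956 genes with several probe sets, 762 (15.4%) had a probe set without overlap in each direction. The direction of Sdc4 therefore rests on which probe set stands for it, and with the mean of both the difference was -0.26.

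**Figure D2:**
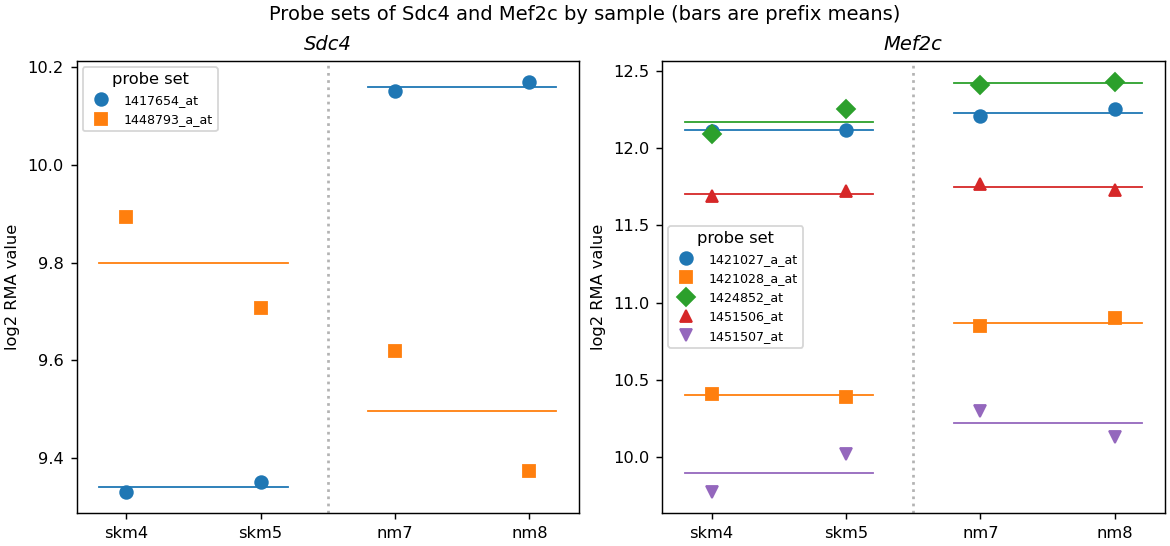
Log2 RMA values of every probe set of Sdc4 (left) and Mef2c (right) in skm4, skm5, nm7 and nm8, with a symbol per probe set and bars at the prefix means. The Sdc4 probe sets separate the prefixes in opposite directions, and all 5 Mef2c probe sets read lower in skm.

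Myod1, which encodes the MyoD factor that can turn other cells into muscle, differed most of the 10. It read 9.62 in both skm samples, against 8.56 in nm7 and 8.19 in nm8. The skm pair differed by less than 0.01, and every skm value exceeded every nm value by more than 1 log2 unit. The difference was 1.24 ± 0.16, or 2.37-fold higher in skm, with a 95% interval of 0.84 to 1.65. Its adjusted p = 0.051 (limma) was just outside the threshold, but 133 genes had an adjusted p between 0.05 and 0.051. By p, Myod1 ranked 80 and Sdc4 132 among all genes. The Myod1 difference ranged from 1.06 without nm8 to 1.43 without nm7. With an intensity trend in limma, Myod1 and Sdc4 passed at adjusted p values of 0.0079 and 0.0080, but 8.96% of all genes then did. Both also passed when genes under the median level were dropped (16.6% of the genes left passed), with probe sets in place of genes (1.6% of probe sets) and at a threshold of 0.10 (8.03% of genes). Myod1 alone of the 10 passed with the mean of a gene's probe sets (0.742% of genes). The same held without probe sets of the suffixes _x_at, _s_at and _a_at (0.741% of genes).

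Myog, which encodes myogenin, read 9.76 in skm4 and 10.09 in skm5, against 8.94 in nm7 and 9.45 in nm8. Both skm samples were higher than both nm samples, and the pairs were wider apart inside each prefix than for Myod1. The difference was 0.73 ± 0.22, or 1.66-fold higher in skm (limma, adjusted p = 0.13). It was 0.47 without nm7 and 0.99 without nm8. The order of samples differed from that of Myod1, since nm7 was the lowest for Myog and nm8 the lowest for Myod1.

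Myf6, the myogenic factor most abundant in adult fibres, read 10.81 in skm4 and 10.80 in skm5, against 10.96 in nm7 and 10.54 in nm8. The skm pair again lay between the nm samples, as it did for Myf5 and for Pax3, which lies on chromosome 1. Myf5 and Myf6 are neighbours on mouse chromosome 10 with 0 genes listed between them. Whether their position bears on these values was not tested. The Myf6 difference was 0.05 ± 0.17, with a 95% interval of -0.38 to 0.48 (limma, adjusted p = 0.90), and it was -0.16 without nm8.

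Mef2c, a MADS box factor that works with the bHLH factors in muscle and is also made in endothelial cells and B lymphocytes, had 5 probe sets. The brightest read 12.09 in skm4 and 12.25 in skm5, against 12.41 in nm7 and 12.43 in nm8. All 5 probe sets read lower in both skm samples than in both nm samples, by 0.05 to 0.47 on the log2 scale. Of all genes, 28.6% were lower without overlap. The probe sets read the same RNA samples and are not independent. The narrowest read 11.69 and 11.72 in skm4 and skm5, against 11.77 and 11.73 in nm7 and nm8. The difference of the brightest was -0.25 ± 0.12 (limma, adjusted p = 0.30). The widest, -0.47 ± 0.12, came from a probe set that read 10.41 and 10.39 in skm4 and skm5, against 10.85 and 10.90 in nm7 and nm8 (limma over all probe sets, adjusted p = 0.11).

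**Figure D3:**
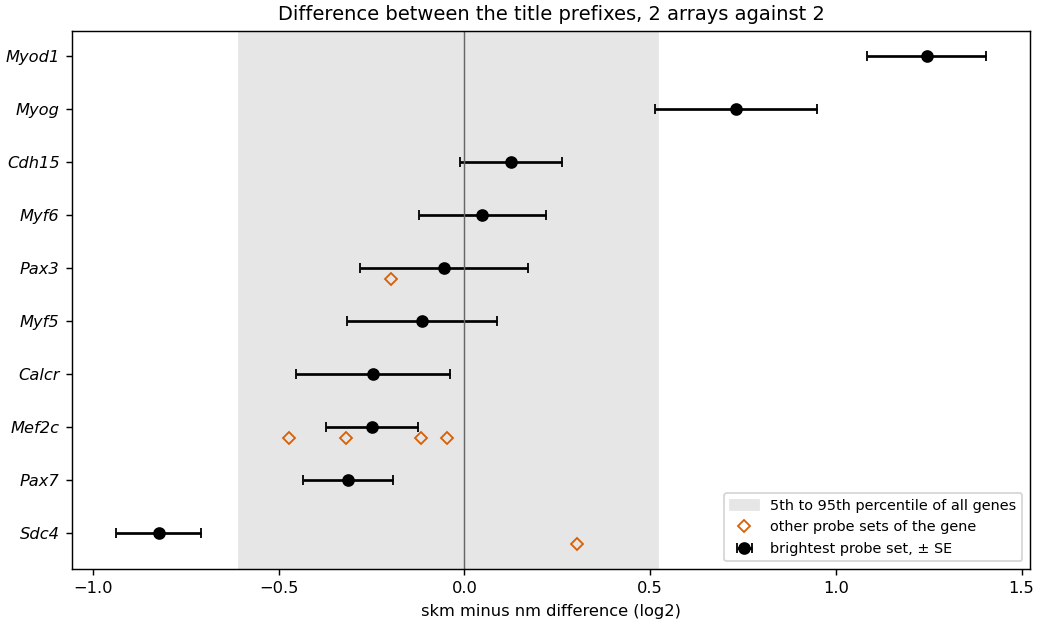
The skm minus nm difference of each gene on the log2 scale for its brightest probe set (black, bars are ± 1 SE of the limma fit, 2 arrays against 2) and for its other probe sets (orange diamonds); the grey band spans the 5th to 95th percentile of all 12393 genes, -0.61 to 0.52. Myod1 at 1.24, Myog at 0.73 and Sdc4 at -0.82 lie outside the band.

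Taken by role, each gene centred on its own mean, the 6 satellite cell genes (Pax7, Pax3, Myf5, Cdh15, Calcr and Sdc4) had medians of -0.07 in skm4 and -0.12 in skm5, against 0.17 in nm7 and 0.11 in nm8. The 4 regulators of myoblasts and fibres (Myod1, Myog, Myf6 and Mef2c) had medians of 0.11 in skm4 and 0.28 in skm5, against -0.16 in nm7 and -0.17 in nm8. These medians are descriptions of lists whose members went both ways. Among the satellite cell genes, Pax3, Myf5, Cdh15 and Calcr overlapped between the prefixes, and Sdc4 turned with its other probe set. Among the regulators, Myf6 overlapped and Mef2c was lower in skm.

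The spread over the 4 samples was widest for Myod1, with an SD of 0.73 (percentile 98.8 of all genes). Myog followed at 0.49 (percentile 95.3) and Sdc4 at 0.48 (percentile 94.6). The median SD of the 10 genes was 0.25, against 0.191 over all genes, and 8 of the 10 exceeded the median of genes within 0.5 log2 of their level. The exceptions were Pax7 and Cdh15. Myod1 and Myog were the members whose range over the samples exceeded 1 log2 unit (2-fold), which 5.98% of all genes did.

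**Figure D4:**
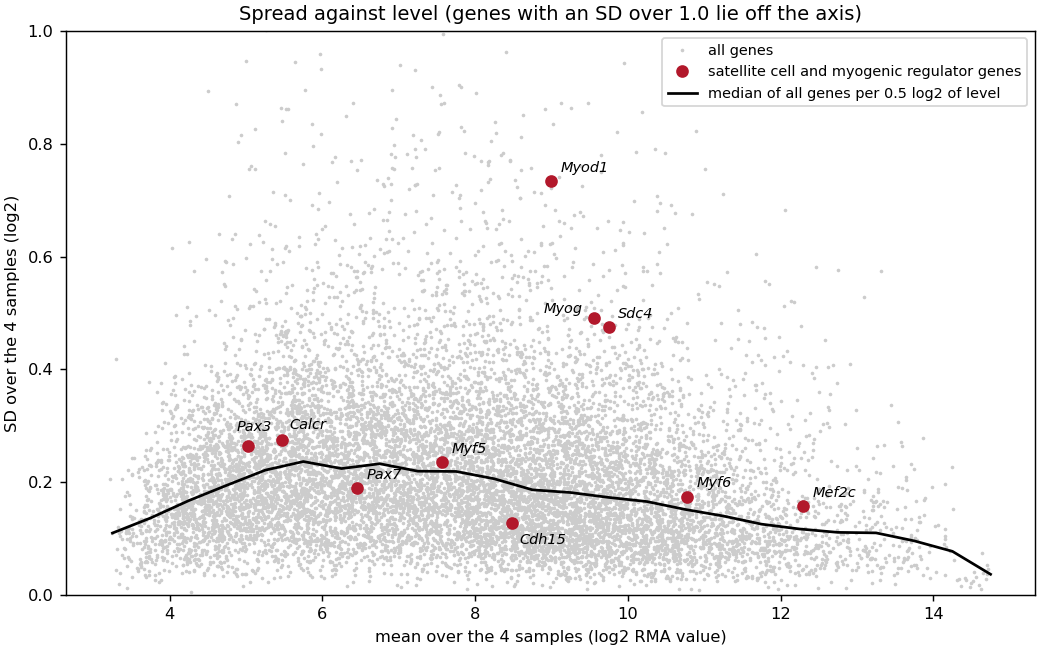
SD over the 4 samples against mean log2 RMA value, for all genes (grey), the 10 genes (red, labelled) and the median of all genes per 0.5 log2 of level (black line). Myod1, Myog and Sdc4 stand well above the line, and Pax7 and Cdh15 lie below it.

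The genes whose 4 values, centred on each gene's mean, lay nearest to those of Myod1 were Haus4, Net1 and Synpo2, with root mean square differences of 0.062, 0.072 and 0.086 log2 units over the 4 samples. Nearest to Myog were Hmgb3 at 0.035, Fhdc1 at 0.065 and Otof at 0.067. Nearest to Sdc4, by its brightest probe set, were Naa15 at 0.015, Ddhd2 at 0.017 and Cd248 at 0.018. With 4 samples such likeness is easily met and is given as a description.

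Other genes of satellite cells went both ways. Of 21 measured surface and quiescence genes, 0 passed limma's test over all genes and 8 had an unadjusted p under 0.05 (23.5% of all genes). Without overlap, 6 were higher and 8 lower in skm, against 25.8% and 28.6% of all genes, and the median difference was -0.02. Cxcr4, a chemokine receptor of satellite cells and leukocytes, read 6.59 in skm4 and 7.33 in skm5, against 7.92 in nm7 and 7.90 in nm8, a difference of -0.94 ± 0.25. Hes1, a transcriptional target of Notch, which maintains quiescence, differed by 0.76 ± 0.12, and Notch1 by -0.66 ± 0.13. Of the other Notch genes in the list, Hey1 differed by -0.01 ± 0.14 and Heyl by -0.10 ± 0.14, both with overlap. Notch3 differed by -0.21 ± 0.12 and Rbpj by -0.28 ± 0.13. Fgfr4, a growth factor receptor of myoblasts, differed by 0.68 ± 0.13, and Sdc3, syndecan-3, by 0.67 ± 0.13, with the sign opposite to that of the brighter Sdc4 probe set. Notch1 was singled out after its values were seen.

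Genes that help or oppose the bHLH factors went both ways. Of 15 measured partners and coactivators, 0 passed limma's test and 3 had an unadjusted p under 0.05, with a median difference of -0.11. Mef2a, a relative of Mef2c, differed by -0.36 ± 0.12, Tcf12, the E protein HEB, by -0.34 ± 0.13, and Srf, serum response factor, by 0.36 ± 0.14. Of 14 measured inhibitors, 0 passed and 5 had an unadjusted p under 0.05, with a median of 0.03. The share of all genes with such a p was 23.5%. Without overlap, 3 inhibitors were higher and 4 lower in skm, against 25.8% and 28.6% of all genes. Id2, which binds E proteins and keeps them from the myogenic factors, read 7.61 in skm4 and 8.13 in skm5, against 8.69 in nm7 and 8.53 in nm8, a difference of -0.74 ± 0.20 (limma, adjusted p = 0.11). Its relative Id3 differed by -0.44 ± 0.13 and Snai2 by -0.61 ± 0.16. Bhlhe41 went the other way, by 0.42 ± 0.18.

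More of the known targets of MyoD and myogenin were higher than lower in skm without overlap, and none passed the test. The list was written with earlier results of these data known, so its shares are given as a description. Of 20 measured, 0 passed over all genes in limma and 7 had an unadjusted p under 0.05 (23.5% of all genes); 9 were higher and 2 lower without overlap (45% and 10% of the list, against 25.8% and 28.6% of all genes), and the median difference was 0.23. Mymk, the fusion protein myomaker, read 7.84 in skm4 and 7.97 in skm5, against 6.23 in nm7 and 7.31 in nm8, a difference of 1.14 ± 0.35 (limma, adjusted p = 0.14). Like Myog, it was lowest in nm7. Tnnt2, the embryonic and cardiac troponin T, differed by 0.68 ± 0.14, and Cdkn1a, a cell cycle inhibitor, by 0.60 ± 0.26. Ankrd1, a stretch-responsive gene, differed by 1.09 ± 0.49 with overlap. The neuromuscular junction genes of this list were picked out with their values known. Chrna1, Chrnb1 and Chrnd, subunits of the acetylcholine receptor, differed by 0.55 ± 0.13, 0.53 ± 0.16 and 0.41 ± 0.16, its clustering protein Rapsn by 0.54 ± 0.16 and the kinase Musk by 0.53 ± 0.14, all without overlap. The fetal subunit Chrng differed by 0.15 ± 0.21 and overlapped. Des and Cav3, also singled out with their values known, were the 2 lower without overlap, by -0.24 ± 0.16 and -0.26 ± 0.12. Ckm and Mylpf, also singled out with Chrng and near the top of the scale, differed by 0.01 and 0.02, where a difference could be compressed.

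Of 13 measured fusion genes, 0 passed limma's test and 4 had an unadjusted p under 0.05, with 5 higher and 1 lower without overlap and a median of 0.23. Over all genes, 23.5% had such a p, 25.8% were higher and 28.6% lower without overlap. Mymk belongs to this list and to the targets, and is counted in both. Myof, myoferlin, differed by 0.68 ± 0.18 and Dock1, an activator of Rac, by -0.43 ± 0.13.

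**Figure D5:**
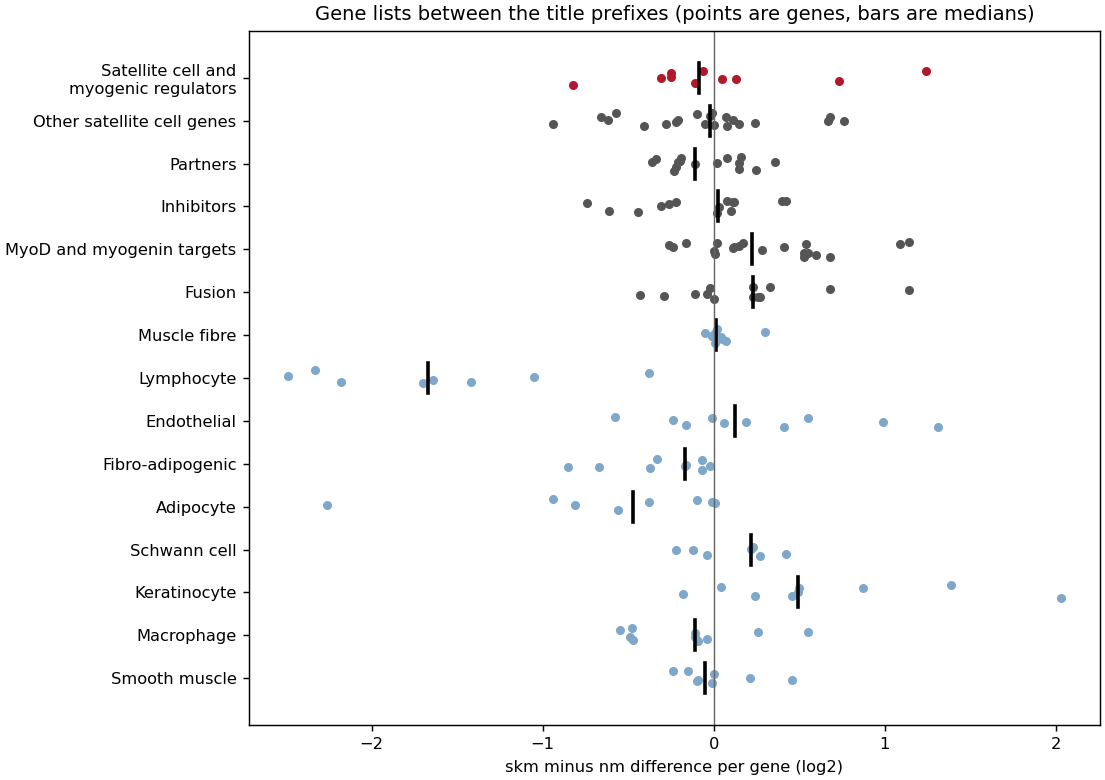
The skm minus nm difference of every measured gene of each list on the log2 scale (points, spread vertically for legibility; black bars are list medians), for the 10 genes (red), other muscle lists (grey) and cell type markers (blue). The median is 0.23 for targets of MyoD and myogenin, 0.23 for fusion genes, 0.22 for Schwann cell markers and 0.49 for keratinocyte markers. It is -1.67 for lymphocyte markers.

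Of the markers of other cell types, 0 genes of any list passed limma's test over all genes. At an unadjusted p under 0.05 there were 8 of 8 lymphocyte, 4 of 8 adipocyte, 4 of 10 endothelial and 1 or 2 genes of each other marker list, against 23.5% of all genes. The counts without overlap that follow stand beside 54.4% of all genes in either direction, which the adipocyte, macrophage, Schwann cell, keratinocyte, smooth muscle and fibre lists did not exceed. All 8 measured lymphocyte markers read lower in both skm samples than in both nm samples, and none read at or below the TrpnX controls. Their summed linear signal was 621 in skm4 and 1348 in skm5, against 2811 in nm7 and 3170 in nm8. Ptprc, which other leukocytes also make, was the brightest of these markers in skm5 (9.33), nm7 (10.42) and nm8 (10.54) and weighs most in those sums. Adipocyte markers, 4 of 8 lower without overlap, summed to 23760 and 30610 in skm4 and skm5, against 34400 and 37360 in nm7 and nm8. Fibro-adipogenic and fibroblast markers, 6 of 9 lower without overlap, summed to 50920 and 56220 in skm4 and skm5, against 62810 and 55510 in nm7 and nm8. Endothelial markers, 5 higher and 3 lower of 10, summed to 6747 and 7149 in skm4 and skm5, against 5698 and 5604 in nm7 and nm8. Keratinocyte markers, 1 higher of 9 without overlap, summed to 868 in skm4 and 2384 in skm5, against 846 in nm7 and 991 in nm8. Schwann cell markers (2 higher and 0 lower of 7 without overlap), macrophage markers (1 higher and 4 lower of 10), smooth muscle markers (2 higher and 1 lower of 8) and fibre markers (2 higher and 1 lower of 10) had median differences of 0.22, -0.11, -0.05 and 0.02. Sdc4, Mef2c and Cxcr4 are also made by cells of these kinds, and the part of such cells in their differences was not tested.

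The clock factor Arntl, which with its partner is known to activate Myod1 in mouse muscle, read 6.65 in skm4 and 6.76 in skm5, against 8.54 in nm7 and 8.46 in nm8. It differed by -1.79 ± 0.12 (limma, adjusted p = 0.047), with the sign opposite to that of Myod1. Arntl belongs to none of the lists and was singled out with its values known, and its part in the Myod1 difference was not tested.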

How the data were processed

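Total RNA of normal muscle was labelled with biotin and hybridised to 1-colour arrays. The authors' deposited table holds log2 signal for each probe set. Per the submitters' processing notes it was made with RMA, and Affymetrix Expression Console 1.1 is named. The arrays normalized together with these 4 and the extraction kit of each sample are not given in the sources used here. Of 22690 probe sets, 64 controls were left out and 20380 had 1 gene in the platform annotation, with symbols updated through the GRCm38.p6 gene table. The probe set with the highest mean stood for each of 12393 genes. All 16 probe sets of the members were read as a check. Differences between prefixes were tested 2-sided by lmFit and eBayes of limma 3.58.1 (R 4.3.3), with 2 residual and 3.51 borrowed degrees of freedom. P-values were adjusted over the whole table by the Benjamini-Hochberg method and called below 0.05. The fit was tested on simulated data with differences larger than that of any member. That test does not speak to differences of the members' size. The number of arrays limits the precision: an exact permutation test of 2 against 2 cannot go below p = 0.333.

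The members and the 14 further lists were chosen with earlier results of these data known. By rule, all members were named, and at most 4 genes of each other list by the size of the difference, plus the 2 with the largest SD in muscle lists. The 3 nearest genes in pattern were taken for members with an SD above percentile 75. Alternatives were quantile normalization, median centring, dropping genes under the median level, averaging a gene's probe sets, leaving out probe sets with the suffixes _x_at, _s_at and _a_at, an intensity trend, probe sets in place of genes, a threshold of 0.10 and each sample left out. The members' other probe sets were added as an alternative after seeing the data.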

Additional observations from a re-analysis of the deposited data

Results flagged for a closer look

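Calcr in skm5 stood apart from the other 3 samples. It read 5.06 there, against 5.63 in skm4, 5.62 in nm7 and 5.56 in nm8, and its gap to the nearest sample was 0.877 of the whole range, above Dixon's 95% critical value for 4 samples. Calcr was dim in every sample, below the array medians of 7.26 to 7.30, which limits the reading of this gap. The other 9 genes had no such sample. About 1 in 20 groups is singled out in this way by chance, and skm5 was also the sample with the highest keratinocyte markers, whose part in this value was not tested.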

How the results depend on the processing

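The number of genes called, 4, became 22 with quantile normalization and 1026 after genes under the median level were dropped. It was 92 with the mean of all probe sets and 78 without probe sets of the suffixes _x_at, _s_at and _a_at. It became 1110 with an intensity trend, 326 with probe sets in place of genes and 995 at an adjusted p of 0.10. With 1 sample left out it was 0 to 15. The number of members called, 0, became 2 (Myod1 and Sdc4) with the filter, where 6 members were left, with the trend, with probe sets in place of genes and at 0.10. It became 1 (Myod1) with the mean of probe sets and without probe sets of those suffixes. Fewer genes tested is part of the filter's construction; otherwise the cause was not tested. The members' median difference ranged from -0.20 to -0.025 and their median SD from 0.194 to 0.294 with 1 sample left out. With the filter, which left 6 members, they were 0.087, of opposite sign, and 0.325. Differences changed sign for Calcr (range -0.53 to 0.04), Myf5 (-0.39 to 0.16), Pax3 (-0.38 to 0.27) and Myf6 (-0.16 to 0.26) with 1 sample left out, for Pax3 with centred arrays (0.00) and for Sdc4 with its other probe set (0.30). In the other 106 of 112 settings over the members, the difference kept its sign. No paired analysis was possible because all 4 samples form 1 group and the prefixes share no replicate number. Signals near the TrpnX controls limit Pax3, and Calcr was also dim.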
